A study of Rattus norvegicus with 6 samples.

Results

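The genes described here are the cyclases that make the cyclic nucleotides cAMP and cGMP and the phosphodiesterases that break them down, as measured in rat dorsal root ganglia (DRG) after nerve injury. They were chosen by symbol alone: a row of the expression table was taken when its gene symbol began with Adcy, Gucy or Pde followed by a digit, and where a symbol had several rows the protein-coding row was kept, or else the row with the largest summed count. The rule found 45 symbols among the 43350 rows of the table, made up of 10 Adcy, 9 Gucy and 26 Pde symbols. Of these, 34 passed the filter on low values (a mean of at least 0.5 FPKM over the 6 libraries, where FPKM counts read pairs relative to row length and library depth) and were tested. The other 11 were weakly expressed and were left out of that test.

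The libraries came from L4-6 DRG, the clusters of sensory neuron cell bodies that send fibres into the sciatic nerve, of male Sprague-Dawley rats at day 11. In the CCI group (chronic constriction injury, n = 3) the left sciatic nerve was loosely tied, and in the Sham group (n = 3) it was exposed without a tie, although the label of the Sham samples gives their treatment as none. Each sample held the ganglia of the operated side of a single rat, by the methods, whereas the library protocol in the labels speaks of pooled samples. Rats were kept in a group only if they had behaved as their group should in pain tests, and 3 of each group were then drawn for sequencing. The rats were 6 to 8 weeks old when acquired and were kept for some weeks before surgery.

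cAMP is made by membrane adenylyl cyclases, which G proteins switch on or off, and by 1 soluble adenylyl cyclase. cGMP is made by soluble guanylyl cyclase, a dimer of an alpha and a beta subunit that senses nitric oxide, and by receptor guanylyl cyclases, which have an extracellular domain of their own. Phosphodiesterases hydrolyse one or both messengers. In sensory neurons cAMP acts through protein kinase A, the exchange factor Epac and the HCN channels, and raised cAMP is known to sensitise nociceptors, the neurons that respond to damaging stimuli. PDE6, made up of the products of Pde6a and Pde6b in rods and of Pde6c in cones, is best known as the enzyme that lowers cGMP in photoreceptors when light falls on the retina.

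The libraries held 75423546 to 87615743 counts, so that 3 counts, taken as the floor of detection, stood for 0.0341 to 0.0394 CPM (counts per 1000000 counts of the library). Counts were compared with edgeR's quasi-likelihood test over the 26663 rows that passed the filter, and a row was called at the limits the study used, an unadjusted p < 0.05 with a log2 fold change (CCI minus Sham) of at least 0.58 in size. The 6 neuron injury markers (Atf3, Sprr1a, Gal, Npy, Sox11 and Jun) were all called higher, and their summed FPKM was 305, 164 and 155 in the CCI libraries against 25.6, 26.8 and 27.3 in the Sham libraries. The study had itself named these 6 genes as higher in these samples, so their calls are no independent evidence of the injury. Macrophage markers summed to 41.1 to 63.2 FPKM after CCI and 27.0 to 35.9 in Sham. Of these, 5 of 10 were called higher (Cd68, Csf1r, Cx3cr1, C1qa and C1qb). Among the T cell markers only Cd4 passed the filter, and it was called higher, with a log2 fold change of 0.68 (SE 0.14). Large neuron markers summed to 943 to 1070 and 1230 to 1300 FPKM, with Pvalb called lower. Neuron markers, which define the labelled tissue, were present at 3740 to 3840 FPKM after CCI and 3360 to 3880 in Sham. Within that sum the log2 fold changes had both signs, from -0.55 for Nefh to 0.31 for Tubb3. Nociceptor markers summed to 406 to 444 FPKM after CCI and 437 to 489 in Sham, with a median log2 fold change of -0.15 and none called. Sham 1 stood apart in skeletal muscle markers, with a sum of 129 FPKM against 5.22 in Sham 2, 18.8 in Sham 3 and 4.26 to 8.4 in the CCI libraries. Of the 7 muscle markers, 5 were called lower after CCI (Acta1, Actn3, Ckm, Mylpf and Tnni2).

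Only 2 of the 34 tested members were called, Pde6b higher and Pde11a lower, and the other 32 missed one or both limits. The share called higher was 2.94% of the members beside 2.57% of all rows tested, and the share called lower was 2.94% beside 1.26%, so each share rested on 1 gene. After Benjamini-Hochberg adjustment over all rows, edgeR's quasi-likelihood test left 0 of the 34 members at an adjusted p < 0.05, beside 0.0938% of all rows. At an unadjusted p < 0.05 whatever the fold, 7 members passed (20.6%, beside 10.7% of all rows). DESeq2 placed 3 members under an adjusted p of 0.05, namely Pde4d, Pde6b and Pde11a, and limma on log2 FPKM placed 0. The CPM of the 3 CCI libraries did not overlap that of the 3 Sham libraries in 8 members (23.5%, beside 17.3% of all rows).

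For most members the difference between the groups was small and bounded. The log2 fold change was under 0.3 in size in 31 of 34 members (91.2%), compared with 71.4% of all rows tested. The members were also above the typical row in level, with a median of 4.01 FPKM, at the 63.5 percentile of all rows tested. The part of level in this comparison was not tested. The 95% confidence interval of the log2 fold change lay within 0.58 of zero in 26 members. The median log2 fold change was 0.067 over the tested members and 0.006 over all rows, with 23 members above zero and 11 below. As these are bulk libraries, fewer cells of a type and less RNA per cell cannot be told apart in any of these values.

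**Figure D1:**
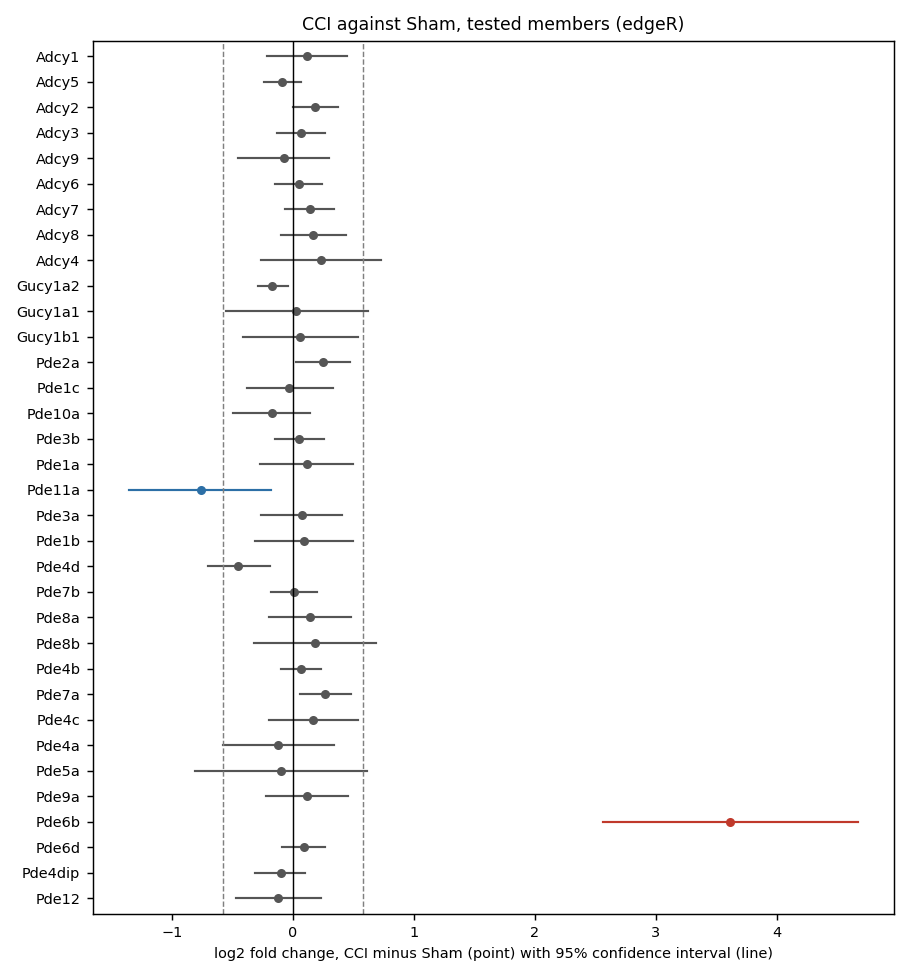
Log2 fold change (CCI minus Sham) of the 34 tested members, ordered by role and then by level, with points for the edgeR estimate and lines for its 95% confidence interval. The dashed lines mark a log2 fold change of 0.58 in either direction. Pde6b lies far to the right at 3.61 and Pde11a to the left at -0.76, while the other points lie between -0.45 and 0.27.

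Pde6b, the beta subunit of rod PDE6, had the largest difference of the tested members, at 12.2 times the mean CPM of Sham. Its row on chromosome 14 (2328750 to 2371883, minus strand, in the coordinates of the authors' table) had a count of 1076 in CCI 1, 532 in CCI 2 and 461 in CCI 3, against 37 in Sham 1, 71 in Sham 2 and 66 in Sham 3. Every CCI library lay far above every Sham library, and CCI 1 was the highest. The level was 2.85 ± 1.31 FPKM (SD, n = 3) after CCI and 0.227 ± 0.0805 FPKM (SD, n = 3) in Sham. The log2 fold change was 3.61 (SE 0.44, 95% confidence interval 2.56 to 4.67), and edgeR's quasi-likelihood test gave unadjusted p = 0.000115 and Benjamini-Hochberg adjusted p = 0.0714. Across the alternative settings the adjusted p of edgeR, DESeq2 and limma ran from 6.97e-18 with DESeq2 to 0.269. Leaving out 1 library at a time gave values from 3.16 to 3.82. With limma it was 3.12 on log2(FPKM + 0.1) and 1.60 on log2(FPKM + 1), where the pseudocount exceeds the Sham level. The study had itself named Pde6b as higher in these samples and in published CCI data of later days. The value given here comes from the same samples, so it is no independent evidence of the direction.

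The other catalytic and inhibitory subunits of PDE6, those of rods and those of cones, were barely detected. Pde6a, the alpha subunit, had 11, 32 and 9 counts after CCI and 43, 35 and 23 in Sham, and the groups overlapped. Pde6c, the cone catalytic subunit, had 20, 15 and 6 counts after CCI and 38, 30 and 15 in Sham. The inhibitory gamma subunits were near or under the floor, with 0, 4 and 12 counts of Pde6g after CCI against 0, 0 and 5 in Sham, and 4 counts of Pde6h in Sham 2 alone. None of these 4 rows passed the filter, and in a fit without that filter none had an unadjusted p below 0.179. Pde6d, whose product carries prenylated proteins and is not part of the catalytic core, was well expressed at 21.5 ± 0.878 CPM (SD, n = 3) after CCI and 20.3 ± 1.08 CPM (SD, n = 3) in Sham, with a log2 fold change of 0.09 (SE 0.08).

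Other photoreceptor genes were low in both groups. Crx, a photoreceptor transcription factor, was at 0 in all 6 libraries, which allows up to 3 counts in each, and Sag, rod arrestin, reached at most 5 counts. Rcvrn had 6, 19 and 13 counts after CCI and 23, 29 and 24 in Sham. Gnat1, rod transducin, shares a joined row with Sema3f, whose counts cannot be assigned to either gene, and the row had a log2 fold change of -0.17 (SE 0.17).

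Both Pde6b and the injury markers were highest in CCI 1, and the part of the markers in the Pde6b difference was not tested. Rows beyond the low end of Pde6b were examined as well. Those beyond its high end, where a gene on the minus strand starts, were not. Atp5me had 1185, 1067 and 996 counts after CCI and 1285, 1168 and 1293 in Sham, a log2 fold change of -0.14 (SE 0.08), and Slc49a3 had a log2 fold change of -0.22 (SE 0.18).

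The promoter of Pde6b is shown because it was the single member promoter that held a match to either of the motifs searched. RefSeq windows in the build GRCr8, from 250 bases before to 50 after a start site, were matched by symbol for 31 of the 45 members and gave 44 windows. The motifs were TGAGTCA, the site bound by AP-1 factors such as Jun and Atf3, and TGACGTCA, the cAMP response element, each searched on both strands. TGAGTCA was present in 1 of 44 member windows and in 4.63% of all 33469 windows, and TGACGTCA in 0 of 44 and 1.83%. In the Pde6b window at chr14:1511386-1511685 (minus strand) the match began 94 bases before the start site, and its letters are in capitals in the sequence, which is written 5′ to 3′. These coordinates belong to GRCr8 and not to the authors' table. The match is a description of the letters only.
Pde6b promoter: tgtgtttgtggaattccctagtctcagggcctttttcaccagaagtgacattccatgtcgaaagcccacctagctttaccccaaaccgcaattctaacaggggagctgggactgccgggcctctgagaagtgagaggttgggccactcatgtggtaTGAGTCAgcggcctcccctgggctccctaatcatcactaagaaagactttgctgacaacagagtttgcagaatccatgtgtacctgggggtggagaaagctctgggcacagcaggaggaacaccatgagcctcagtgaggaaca

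Pde11a, which encodes a phosphodiesterase of both cAMP and cGMP, was the single member called lower. Its row on chromosome 3 (62818502 to 63211842, minus strand) held 741, 934 and 496 counts after CCI and 1592, 960 and 1322 counts in Sham. CCI 2 and Sham 2 came close to each other, at 934 and 960 counts, but the groups did not overlap in CPM. The level was 1.69 ± 0.471 FPKM (SD, n = 3) after CCI and 2.84 ± 0.578 FPKM (SD, n = 3) in Sham. The log2 fold change was -0.76 (SE 0.24, 95% confidence interval -1.35 to -0.18), with unadjusted p = 0.0177 and Benjamini-Hochberg adjusted p = 0.341 by edgeR. Over the alternative settings the adjusted p was 0.0476 to 0.581. The call did not hold without CCI 3 (log2 fold change -0.57) or without Sham 1, the library with the skeletal muscle markers (-0.63, with an unadjusted p of 0.0612).

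A separate row that the table also gives the symbol Pde11a lies 568 bases beyond the low end of the first, at 62814423 to 62817933, and is 3511 bases long. It held 490, 574 and 368 counts after CCI and 848, 687 and 766 counts in Sham. Every CCI library was below every Sham library. This row had a log2 fold change of -0.62 (SE 0.16), with unadjusted p = 0.0079 and Benjamini-Hochberg adjusted p = 0.265 by edgeR (0.0315 to 0.514 over the alternatives), and it too was called lower, though not without CCI 3 (-0.48). Both rows may draw on one transcript, so they are not independent measurements. The table describes the larger row as testis cytochrome c, a different gene, so that its counts may include reads of that gene. Ttc30a1, another nearby row, had a log2 fold change of -0.42 (SE 0.22) and overlapping groups. The summed large neuron markers were also below those of Sham, as given above. Nefh, at means of 570 and 822 FPKM, carried most of that sum and had a log2 fold change of -0.55, Pvalb had -0.69 and Ntrk3 -0.24, while Spp1 had 0.25 (SE 0.18). Their part in the Pde11a difference was not tested.

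**Figure D2:**
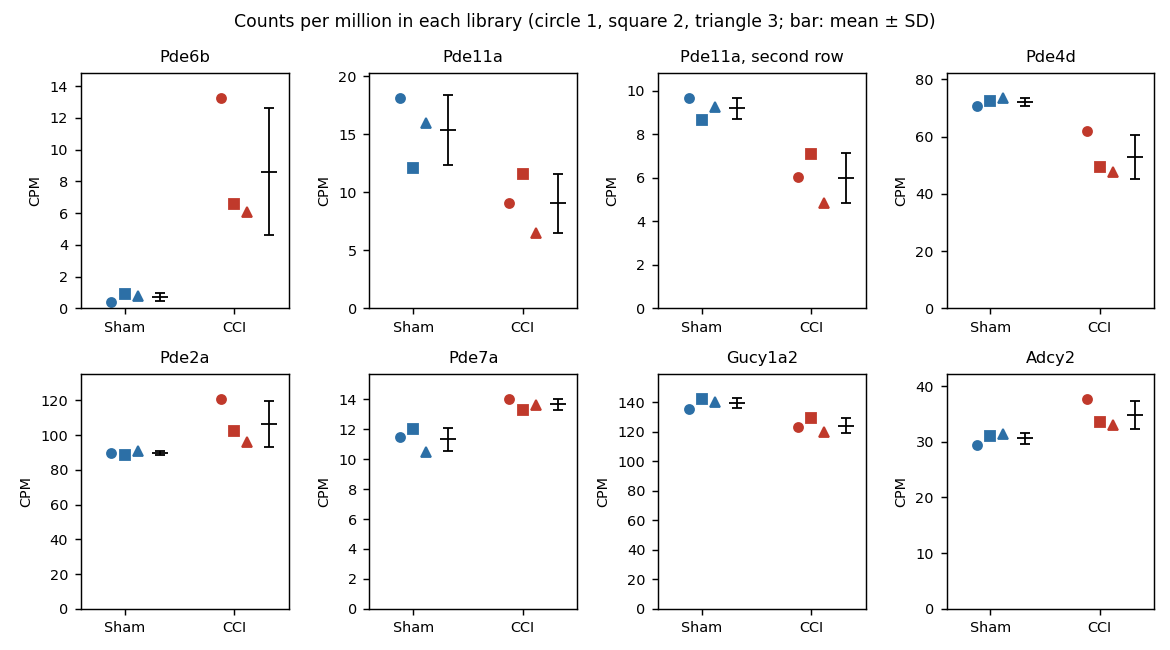
CPM in each library for the 7 members with an unadjusted p < 0.05 and for the second row that carries the symbol Pde11a, with bars for the mean ± SD of 3 libraries and every axis starting at 0. The Pde6b means are 8.62 after CCI and 0.704 in Sham, whereas in the other panels the groups lie closer together without overlapping.

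Pde4d, a cAMP phosphodiesterase expressed in many tissues, had the lowest p of the members after Pde6b but fell short of the fold limit. Its row on chromosome 2 (40554146 to 41468545, plus strand) is joined in the table with a second, unnamed gene, AABR07008066, and held 5033, 3978 and 3645 counts after CCI and 6219, 5756 and 6068 in Sham. The Sham libraries were tightly grouped, and all 3 CCI libraries were below them. For Pde4d the log2 fold change was -0.45 (SE 0.11, 95% confidence interval -0.70 to -0.19). edgeR's quasi-likelihood test gave unadjusted p = 0.0046 and Benjamini-Hochberg adjusted p = 0.224, which ran from 0.0147 to 0.488 over the alternatives. With 1 library left out at a time, the log2 fold change of Pde4d lay between -0.57 and -0.38.

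The estimates of the other cAMP phosphodiesterases lay on both sides of zero. Pde7a had 1142, 1072 and 1041 counts after CCI and 1011, 954 and 869 in Sham, and the groups did not overlap in CPM. Its log2 fold change was 0.27 (SE 0.09), with unadjusted p = 0.021 and Benjamini-Hochberg adjusted p = 0.359 by edgeR. Pde7b was level between the groups at 5.16 ± 0.231 and 5.06 ± 0.254 FPKM (SD, n = 3 each), a log2 fold change of 0.01 with a 95% confidence interval of -0.18 to 0.20. Of the Pde4 isoenzymes, Pde4a (-0.12), Pde4b (0.07) and Pde4c (0.17) had log2 fold changes with unadjusted p-values of 0.308 or more. Pde8a and Pde8b, which bind cAMP with high affinity, had log2 fold changes of 0.14 and 0.18. The 8 cAMP phosphodiesterases together summed to 29.2, 29.5 and 30.1 FPKM after CCI and 30.0, 29.0 and 29.0 in Sham, a ratio of 1.01.

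Among the phosphodiesterases of both messengers, Pde2a, which cGMP stimulates, was the most abundant by FPKM. It held 9839, 8267 and 7307 counts after CCI and 7897, 7018 and 7510 in Sham, or 10.2 ± 1.21 and 8.49 ± 0.127 FPKM (SD, n = 3 each). CCI 1 was the highest, and the groups did not overlap in CPM. This gave a log2 fold change of 0.25 (SE 0.09, 95% confidence interval 0.03 to 0.47), with unadjusted p = 0.0321 and Benjamini-Hochberg adjusted p = 0.408 by edgeR. The calcium and calmodulin dependent Pde1a, Pde1b and Pde1c had log2 fold changes of 0.12, 0.09 and -0.03, and Pde3a and Pde3b, which cGMP inhibits, had 0.08 and 0.05. Pde1c was the second most abundant at a mean of 6.98 FPKM, in a row that the table joins with another gene. Pde10a had 5.28 ± 0.929 FPKM (SD, n = 3) after CCI and 5.89 ± 0.175 in Sham, with a log2 fold change of -0.17 (SE 0.13). The 8 members that hydrolyse both messengers summed to 36.2, 37.3 and 32.2 FPKM after CCI and 34.9, 32.9 and 36.0 in Sham.

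Of the cGMP phosphodiesterases other than PDE6, Pde5a, the target of sildenafil, was the most variable, with 631, 1233 and 1016 counts after CCI and 1394, 739 and 1146 in Sham. The groups overlapped, and its log2 fold change of -0.10 had a 95% confidence interval of -0.81 to 0.61, which reaches past the fold limit in both directions. Pde9a, which has a high affinity for cGMP, was at 1.84 ± 0.0627 FPKM (SD, n = 3) after CCI and 1.67 ± 0.189 in Sham, a log2 fold change of 0.12 (SE 0.14).

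The summed level of the cGMP phosphodiesterases separated the groups with Pde6b and not without it. The 5 rows summed to 8.37, 8.36 and 7.46 FPKM after CCI and 6.50, 4.70 and 5.52 in Sham, a ratio of 1.45 without overlap (exact two-sided permutation test, p = 0.1, the smallest p that 3 against 3 libraries can give). Pde6b made up 52.0%, 26.1% and 26.9% of that sum in CCI 1, 2 and 3, and 2.09%, 6.13% and 4.67% in Sham 1, 2 and 3. Without Pde6b the ratio was 0.976 (exact permutation p = 0.9). Neither sum was among the planned family tests, and their p-values were not adjusted. The contrast between them restates the Pde6b values given above and is no separate evidence.

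**Figure D3:**
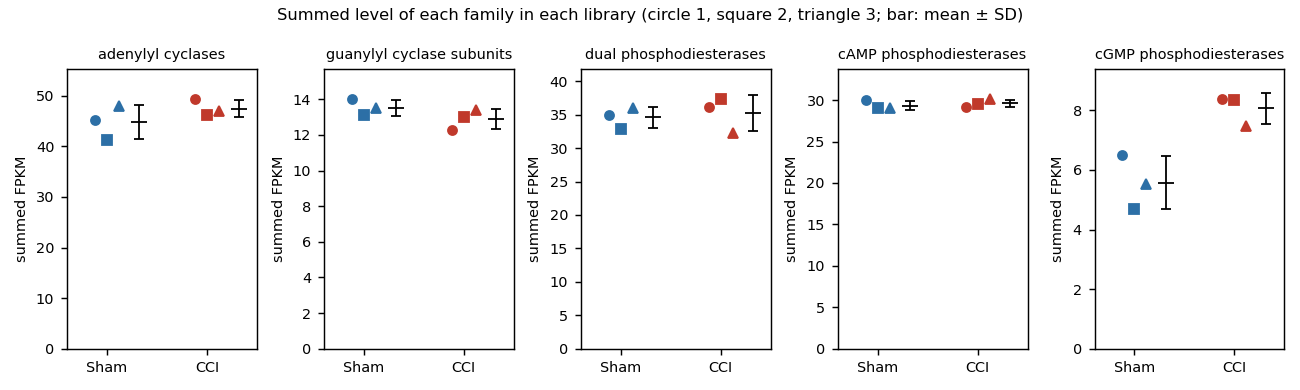
Summed FPKM of the adenylyl cyclases, the guanylyl cyclase subunits and the 3 classes of phosphodiesterase in each library, with bars for the mean ± SD of 3 libraries and every axis starting at 0. The groups overlap in the adenylyl cyclases, the dual phosphodiesterases and the cAMP phosphodiesterases, and separate in the cGMP phosphodiesterases, at 7.46 to 8.37 FPKM after CCI and 4.70 to 6.50 in Sham.

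The membrane adenylyl cyclases were expressed as a broad set, with all of Adcy1 to Adcy9 above the filter and none called. The most abundant was Adcy1, which calcium and calmodulin stimulate, with 2669, 2266 and 2269 counts after CCI and 2528, 1795 and 2649 in Sham. The groups overlapped, at 8.04 ± 0.620 and 7.31 ± 1.25 FPKM (SD, n = 3 each), and the log2 fold change was 0.12 with a 95% confidence interval of -0.21 to 0.45. Adcy5, which calcium inhibits, followed with 3136, 2962 and 2750 counts after CCI and 3655, 3041 and 3175 in Sham, a log2 fold change of -0.09 (95% confidence interval -0.24 to 0.07), with overlap. Adcy1 and Adcy5 carried 16.6% and 15.6% of the summed adenylyl cyclase FPKM, and their mean levels of 7.68 and 7.19 FPKM differed by less than the spread of Adcy1 between libraries.

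Adcy2, in a joined row, was the one adenylyl cyclase below an unadjusted p of 0.05. It held 3068, 2712 and 2519 counts after CCI and 2586, 2462 and 2598 in Sham, and did not overlap in CPM. Its log2 fold change was 0.18 (SE 0.08), with unadjusted p = 0.0468 and Benjamini-Hochberg adjusted p = 0.455 by edgeR. Adcy7, an isoenzyme known from blood and immune cells, also had no overlap in CPM, with a log2 fold change of 0.14 (SE 0.08, unadjusted p = 0.133 by edgeR). The sum of the macrophage markers was also above that of Sham, and their part in the Adcy7 value was not tested. Adcy8, like Adcy1 stimulated by calcium, had a log2 fold change of 0.17 (SE 0.11), and Adcy3, Adcy6 and Adcy9 had 0.07, 0.05 and -0.07. Adcy4 was the least abundant tested cyclase at a mean of 0.941 FPKM, and its interval of -0.26 to 0.73 was the widest of the adenylyl cyclases. Soluble adenylyl cyclase, Adcy10, was weakly expressed, with 97, 44 and 48 counts after CCI and 99, 52 and 48 in Sham.

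Soluble guanylyl cyclase was represented by 3 subunits above the filter. Gucy1a2, an alpha subunit, held 10010, 10457 and 9125 counts after CCI and 11904, 11299 and 11614 in Sham, and carried 73.8% of the summed soluble guanylyl cyclase FPKM. Every CCI library was below every Sham library, yet the difference was small. Its log2 fold change was -0.17 (SE 0.05, 95% confidence interval -0.29 to -0.04), with unadjusted p = 0.018 and Benjamini-Hochberg adjusted p = 0.345 by edgeR. Gucy1a1, the other alpha subunit, had 618, 709 and 940 counts after CCI and 1052, 605 and 699 in Sham, and its groups overlapped. Gucy1b1, the beta subunit, was the lowest of the 3 at 1.48 ± 0.0976 FPKM (SD, n = 3) after CCI and 1.40 ± 0.321 in Sham, a log2 fold change of 0.06 (95% confidence interval -0.41 to 0.54). Gucy1b2 had 6 counts in CCI 1 and 0 in the other 5 libraries.

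The 5 receptor guanylyl cyclases that match the rule were all under the filter. Gucy2d was the highest of them, with 156, 143 and 197 counts after CCI and 129, 118 and 98 in Sham, or 0.538 ± 0.114 and 0.351 ± 0.0445 FPKM (SD, n = 3 each). The groups did not overlap in CPM. In the fit without a filter on low values the log2 fold change of Gucy2d was 0.60 (SE 0.23), with unadjusted p = 0.0375 and Benjamini-Hochberg adjusted p = 0.523 by edgeR. Gucy2g had 3 to 27 counts after CCI and 13 to 33 in Sham, and Gucy2c, Gucy2e and Gucy2f had at most 15 counts in any library. Npr2, a receptor guanylyl cyclase whose symbol lies outside the rule, was the abundant one of its class at a mean of 26.1 FPKM, with a log2 fold change of -0.00 (SE 0.07).

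Summed by family, the groups were close. The 10 adenylyl cyclases summed to 49.3, 46.1 and 47.0 FPKM after CCI and 45.3, 41.3 and 47.9 in Sham, a ratio of 1.06 (exact permutation p = 0.4). The 9 guanylyl cyclase subunits summed to 12.3, 13.0 and 13.4 FPKM after CCI and 14.0, 13.1 and 13.5 in Sham, a ratio of 0.952 (exact permutation p = 0.2). The 21 cyclic nucleotide phosphodiesterases summed to 73.7, 75.1 and 69.8 FPKM after CCI and 71.4, 66.6 and 70.5 in Sham, a ratio of 1.05 (exact permutation p = 0.3). The Benjamini-Hochberg adjusted value was 0.4 for each of these 3 exact two-sided tests, and none could have gone below p = 0.1.

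**Figure D4:**
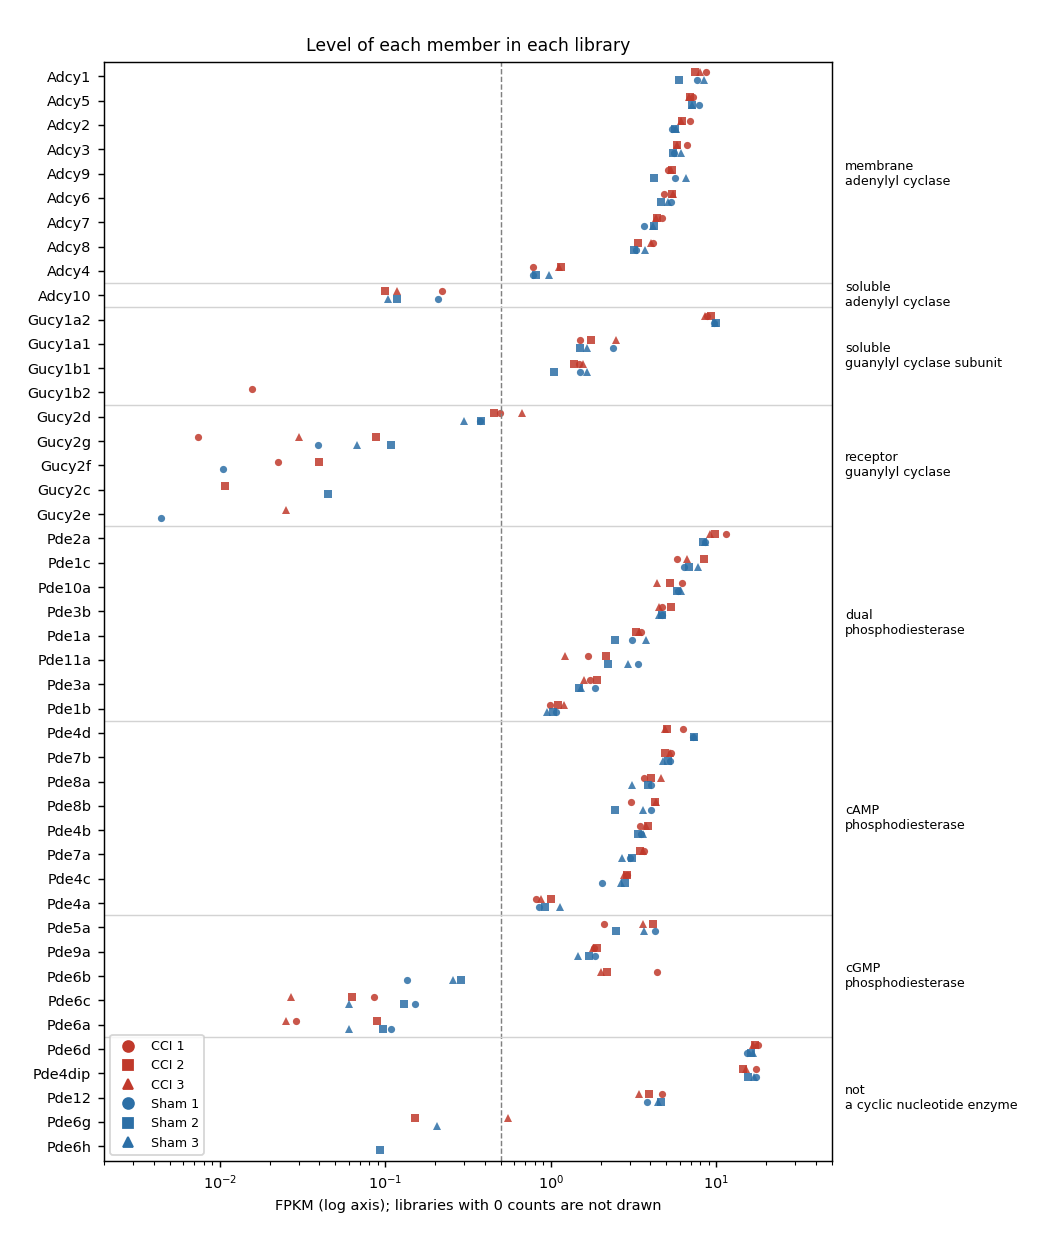
FPKM of the 45 members in each of the 6 libraries on a log axis, grouped by role and ordered by mean level within a role, with red symbols for CCI, blue for Sham and the shape for the replicate. The dashed line marks the filter at a mean of 0.5 FPKM. Pde6b is the member whose red and blue symbols lie farthest apart among those above the filter.

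Several symbols of the rule name no cyclic nucleotide enzyme. Besides Pde6d, Pde6g and Pde6h, these are Pde4dip (myomegalin), a centrosome and Golgi protein that binds a phosphodiesterase, and Pde12, which acts on RNA. By FPKM, Pde6d and Pde4dip were the 2 highest of all Pde symbols, at means of 16.6 and 16.1. Pde6d held 1829, 1727 and 1582 counts after CCI and 1680, 1624 and 1758 in Sham. Pde4dip held 22962, 18921 and 18627 counts after CCI and 24969, 20254 and 23090 in Sham, a log2 fold change of -0.10 (SE 0.09). Pde12 had a log2 fold change of -0.12 (SE 0.15). The groups overlapped in all 3 of these.

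The table spread 9 of the members over several rows and kept 36 in 1 row each. There were 35 further rows with a member's symbol, of which 33 passed the filter, and 0 were called higher and 1 lower, the second Pde11a row described above, which was also the 1 further row with an unadjusted p < 0.05. Of the 35 rows, 30 lay inside the span of the member's own row, 11 of them on the opposite strand. The library protocol marks strand, but whether the counting used it was not given in the sources used here, so reads of a gene and of a row overlapping it could have been divided between them. The rows of Adcy2, Pde1c, Pde4b and Pde4d each joined the member with another gene, and their counts cannot be assigned to the member alone.

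Around the enzymes, a list of 66 genes that feed into cyclic nucleotide signalling or act downstream of it was examined, of which 62 were found and 54 tested. Prkg1, Cnga2, Vipr1 and Popdc1 were not analysed here. Of the 54 genes, 4 were called higher (7.41%, beside 2.57% of all rows) and 0 lower (0.0%, beside 1.26%), and the median log2 fold change was 0.03. The list was drawn up with earlier results of these data known, so these shares are no test of the pathway. At an adjusted p < 0.05 there were 0 by edgeR, 5 by DESeq2 and 0 by limma on log2(FPKM + 0.1), and 13 had an unadjusted p < 0.05 by edgeR, a limit that 10.7% of all rows passed. By role, the called genes were peptides that act on receptors coupled to adenylyl cyclase (Adcyap1 and Vip), the neuronal nitric oxide synthase (Nos1) and a transcription factor of the cAMP response (Crem).

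Adcyap1, which encodes PACAP, a peptide named for its activation of adenylyl cyclase, held 12494, 9984 and 7322 counts after CCI and 4760, 4816 and 4949 in Sham. All CCI libraries were above all Sham libraries. Its log2 fold change was 1.10 (SE 0.17), with unadjusted p = 0.000412 and Benjamini-Hochberg adjusted p = 0.103 by edgeR. Vip, the related vasoactive intestinal peptide, held 1344, 374 and 240 counts after CCI and 0, 0 and 8 in Sham, with CCI 1 the highest again. The study had also named Adcyap1, Vip and Nos1 as higher in these samples and in published CCI data of later days. Adcyap1r1, the PACAP receptor, had a log2 fold change of -0.35 (SE 0.23) and Vipr2, a receptor of both peptides, 0.15 (SE 0.14).

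Nos1, which makes the nitric oxide that soluble guanylyl cyclase senses, held 2477, 984 and 972 counts after CCI and 892, 756 and 783 in Sham. CCI 1 stood far above the other libraries. The log2 fold change was 0.93 (SE 0.36), with unadjusted p = 0.0391 and Benjamini-Hochberg adjusted p = 0.429 by edgeR, and the call was lost without CCI 1 (log2 fold change 0.36), Sham 1, Sham 2 or Sham 3. Crem held 684, 482 and 275 counts after CCI and 354, 271 and 268 in Sham, and the groups overlapped. Its log2 fold change was 0.75 (SE 0.31), and the call was lost when any library but CCI 3 was left out, with an estimate of 0.43 without CCI 1.

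Several genes of the list, named here after their values were seen, lay below the fold limit with an unadjusted p < 0.05. Rapgef4, which encodes the cAMP sensor Epac2, held 9054, 8021 and 7479 counts after CCI and 14688, 12743 and 10011 in Sham, without overlap. Its log2 fold change was -0.54 (SE 0.13), with unadjusted p = 0.00497 and Benjamini-Hochberg adjusted p = 0.231 by edgeR. Prkg2, a cGMP dependent protein kinase, held 634, 725 and 651 counts after CCI and 989, 851 and 1044 in Sham, a log2 fold change of -0.45 (SE 0.11, unadjusted p = 0.00584 by edgeR). Prkaca, a catalytic subunit of protein kinase A, had -0.24 (SE 0.06), and Hcn2, a channel that cAMP opens further, -0.29 (SE 0.08). Npr3, a receptor that clears natriuretic peptides and is no effector, had 0.46 (SE 0.07). Its unadjusted p of 0.000396 by edgeR was the lowest of the list. The cyclic nucleotide gated channels that PDE6 serves in photoreceptors were under the filter. Cnga1, of rods, had 13 counts in Sham 1 and 0 elsewhere, Cnga3, of cones, was at 0 in all 6 libraries, and Cngb1 had 12, 47 and 19 counts after CCI and 10, 23 and 19 in Sham. Cnga4, known from olfactory neurons, held 149, 54 and 30 counts after CCI and 0, 0 and 6 in Sham, with CCI 1 the highest as in Pde6b. In the fit without a filter on low values Cnga4 was called higher.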

How the data were processed

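Ribosomal RNA depleted libraries of L4-6 DRG from 3 CCI and 3 Sham rats were sequenced as read pairs. Per the study's methods, clean reads were mapped with HISAT and assembled with StringTie (HISAT2 2.0 and StringTie 1.3.0 in the submitters' processing notes). The reference build was not named beyond a release number, and the strand setting of the counting was not given in the sources used here. The authors deposited, for each of 43350 rows, a whole-number count per library and an FPKM value, which they normalised by row length and library.

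Counts were scaled by TMM and tested with edgeR 4.0.16 (glmQLFit and glmQLFTest, R 4.3.3) over 26663 rows, those whose FPKM averaged 0.5 or more over the libraries, CCI against Sham without covariates, with Benjamini-Hochberg adjustment over those rows. Confidence intervals at the 95% level used the fit's degrees of freedom. The edgeR procedure was tested on simulated data. Alternatives were DESeq2 1.42.0, median-ratio size factors, a filter at a mean FPKM of 1, no filter, limma 3.58.1 on log2(FPKM + 0.1) and log2(FPKM + 1), a prior without trend, protein-coding rows alone, the replicate number as a block, and each library left out in turn. Family sums of FPKM were compared by an exact permutation test (scipy 1.17.1).

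The members, the lists of pathway genes and markers, and the tests were chosen with earlier results of these data known. Every member is accounted for by role. Counts in all libraries are given for members called, for members without overlap and with a log2 fold change reaching 0.3 in either direction, and for the 2 highest of each of Adcy, Gucy and Pde. Of the lists, the genes called are named. Members and listed genes shown in full beyond this rule were picked after their values were seen. Samples are separate rats per the study's methods, and the numbers in the sample titles do not pair them. Values of 1 library cover counting error only through the floor of 3 counts, since the reads carried no molecular identifiers that the sources mention.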

Additional observations from a re-analysis of the deposited data

Results flagged for a closer look

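The 11 untested members and the 35 further rows with a member's symbol, 46 in all, were compared by the fold of their mean CPM, CCI over Sham. In 5 of the 46 (10.9%) the groups did not overlap, beside 17.3% of all rows tested, and 4 of these stood higher after CCI. Gucy2d, a receptor guanylyl cyclase under the filter on low values, had a fold of 1.52. A further row with the symbol Pde3a had a fold of 4.74, from 14, 16 and 57 counts after CCI and 13, 7 and 0 in Sham, so that CCI 3 alone carried most of it. A further row with the symbol Pde4d had a fold of 2.07, from 53, 40 and 66 counts after CCI and 37, 12 and 33 in Sham. A further row with the symbol Pde7a had a fold of 1.23, from 302, 307 and 283 counts after CCI and 301, 166 and 301 in Sham. None of the 3 further rows had an unadjusted p < 0.05 by edgeR's quasi-likelihood test.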

How the results depend on the processing

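Over all rows, 686 were called higher and 336 lower. These counts were 410 and 161 with limma on log2(FPKM + 1), and 345 and 116 with protein-coding rows alone, where fewer rows were tested. At an adjusted p < 0.05 there were 25 rows by edgeR, 751 by DESeq2, 14 with a prior without trend, 78 with protein-coding rows alone, 0 with the replicate block, and 6 to 61 with single libraries left out. Members at an adjusted p < 0.05 were 0 by edgeR, 3 by DESeq2 (Pde4d, Pde6b and Pde11a), 1 with protein-coding rows alone (Pde6b) and 0 to 1 with single libraries left out (Pde4d without CCI 1). Pde6b was called higher in the 15 alternatives, and without a filter Gucy2d joined it, making 2. Pde11a was called lower except with limma on log2(FPKM + 1), which left 0 members lower and a log2 fold change of -0.52, without CCI 3 and without Sham 1. With single libraries left out there were 0 to 1 members lower, and the log2 fold change of Pde11a was -0.98 to -0.57. The median log2 fold change of the members was 0.067, and 0.014 to 0.091 with single libraries left out. Of the pathway genes, 4 were called higher, 2 with either limma setting (Adcyap1 and Vip), and 5 without a filter, where Cnga4 was added. With single libraries left out 2 to 5 were higher and 0 to 1 lower (Rapgef4 or Pkig). The cause of these differences was not tested unless stated. Pde6b had a log2 fold change of 3.61, and of 1.60 with limma on log2(FPKM + 1). Pde6b, Pde11a and the other 5 members with an unadjusted p < 0.05 kept their direction in these settings. In 11 other tested members, none with an unadjusted p below 0.412, the log2 fold change rounded to 2 decimals took both signs, depending on which library was left out. Examples were Adcy9 at -0.23 to 0.09 and Pde5a at -0.30 to 0.14. Adcy3, at -0.0 to 0.12, reached zero after rounding and is not in that count.

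The replicate numbers did not pair the samples, as the correlation of deviations between same-numbered libraries was -0.00943, -0.0195 and -0.0535. In the fit with the replicate block Pde6b and Pde11a were called as without it, and 0 rows had an adjusted p < 0.05.

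With 3 rats per group, the 95% confidence intervals of Pde5a, Gucy1a1, Pde8b and Adcy4 reached past a log2 fold change of 0.58. The 11 weakly expressed members were left out by the filter on FPKM, and those at or near 3 counts lay at the limit of detection.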
